A study of Mus musculus with 3 samples.

Results

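The untreated sample of this series is a culture of mouse C2C12 cells, profiled alone on 1 array, and it is described here by the levels of its genes. Its members were the probe sets (groups of short probes that read 1 transcript) with 1 gene symbol, controls left out: 20380 of the 22690 probe sets of the array. Each gene was represented by its brightest probe set on this array, which gave 12393 genes. C2C12 is a myoblast line, derived from leg muscle of an adult C3H mouse. The cells had no transfection, carry the time label 12 h, and were kept in DMEM with 10% heat-inactivated fetal calf serum plus penicillin and streptomycin. The series, by its title, concerns Btg2 and cyclin D1 in the cell cycle arrest caused by DGKzeta, a kinase that phosphorylates diacylglycerol, in the nucleus. Its other samples, 1 transfected with EGFP and 1 with DGKzeta, were not used.

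Myoblasts are the dividing precursors of skeletal muscle fibres. In serum they proliferate, held back from differentiation in part by ID proteins, which capture the partners of the myogenic transcription factors. After serum is withdrawn, the myogenic factors switch on genes of the contractile apparatus and the cells fuse into myotubes. Transcripts of a growing culture can therefore be sorted into those of growth, of muscle identity and of differentiated muscle.

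With 1 array there is no spread between cultures, so no test across samples was possible, and each value describes this culture alone. A signal is a MAS5 intensity on a linear scale, scaled by the authors. Probe sets bind their targets with unequal strength and genes differ in transcript length, so a rank orders signals and not numbers of transcripts. In a culture of mixed cells, few cells with much of a transcript and many cells with little cannot be told apart.

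The background level was taken from genes restricted to other tissues, such as lens crystallins, pancreatic enzymes, caseins and sperm protamines. Of 104 such genes 92 were measured, and the 90th percentile of their signals was 41.5. In all, 7815 of 12393 genes (63.1%) reached that level, and 4578 lay under it. The highest signal among the 92 genes was 371, of the stomach peptide Tff1, followed by 301 for the elastase Cela1 and 227 for the skin keratin Krt10, and 4615 genes (37.2%) lay above all 92. The last genes under the level were Rnf227 and Ficd, both at 41.5, and the first ones over it Wnt2b and Clec2d, both at 41.6. A gene is called under background, above background or clearly above background by these marks.

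Gene signals ran from 0.239 to 26934 with a median of 159, a 10th percentile of 3.95, a 90th of 1856 and a 99th of 8544. They formed a low mode that overlaps the genes of other tissues and a broad mode at higher signals. Summed over all genes, 7.89% of the signal came from the 40 brightest genes and 55.8% from the brightest 1000. Percentiles below are ranks among the 12393 genes, where the brightest gene stands at 100.

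**Figure D1:**
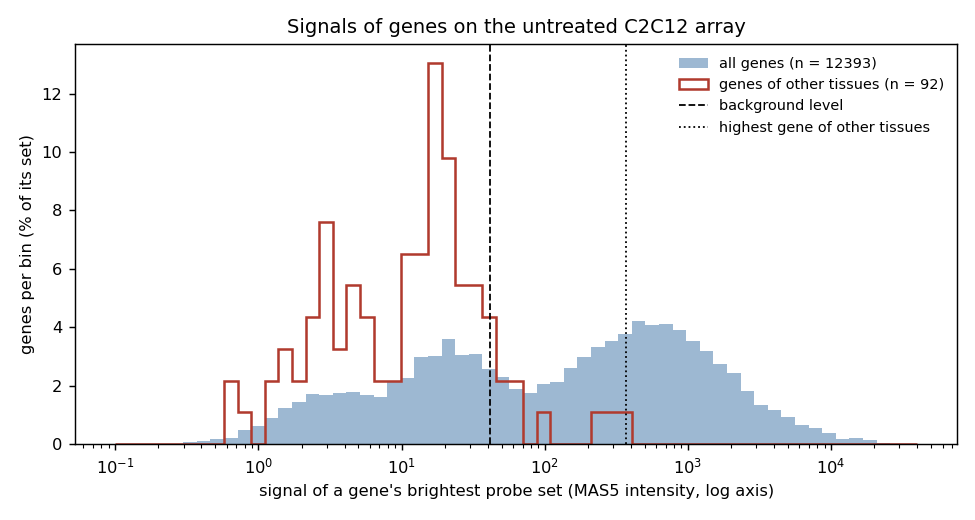
Share of genes (vertical axis, % of each set) by signal of the brightest probe set (horizontal axis, MAS5 intensity, log scale) for all 12393 genes (filled) and 92 genes of other tissues (outline). Most genes of other tissues lie under the background level of 41.5 (dashed), and all lie at or under 371 (dotted).

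The error of a level was read from genes with several probe sets. Of 3057 genes with 2 probe sets, 56.4% had both at or above the background level, 25.9% had both under it and 17.8% had 1 on each side. Where the brighter of the pair was above background (2266 genes), the median log2 difference between them was 1.43, and it passed 3 in 23.6%. The rank correlation of the pair across genes, which are not independent replicates, was 0.650. Ranked among all 20380 named probe sets, percentiles had an SD of 16.9 between the 2 sets of a gene, pooled over all signals. That is not the error of a percentile among genes by brightest probe set, the measure used below. Genes with more probe sets also ranked higher, with a median percentile of 39.4 for the 7437 genes with 1 probe set and 79.6 for the 708 with 4 or more, and the part of this in a gene's rank was not tested.

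Ribosomal proteins and a few cytoskeletal and carbohydrate-binding proteins filled the top of the array. Of the 40 brightest genes 25 encoded cytosolic ribosomal proteins, 2 came from the translation factor list, 4 were cytoskeletal genes and 9 others. Lgals1, which encodes galectin-1, a secreted lectin that binds cell surface sugars, had the highest signal of all at 26934, and its other probe set read 17994. Next came the ribosomal protein gene Rpl7a at 23397 and Vim at 22739.5, which encodes vimentin, the intermediate filament protein of mesenchymal cells. The other Vim probe sets read 15936 and 14592. The elongation factor Eef1a1 stood at 20921, and Tpt1, a small translationally controlled protein, at 20392 by 1 probe set and 0.882 by the other.

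Besides ribosomal genes, the 40 brightest held both cytoplasmic actins, with Actg1 at 18539 and Actb at 17775. S100a4, a calcium-binding protein of motile cells, stood at 17738, and Tmsb10, which binds actin monomers, at 17219. Hspa8, the constitutive HSP70 chaperone, read 16199.7, and the second galectin, Lgals3, 15629.9. Fth1, the ferritin heavy chain that stores iron, read 15391, and Txn1, thioredoxin, 15374. Uqcrb, a subunit of respiratory complex III, stood at 17188, Nme2, a nucleoside diphosphate kinase, at 16125, and Anxa2, a calcium-dependent membrane-binding annexin, at 15226.

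Several of these top signals had a disagreeing probe set. The other Actb probe set read 100.01, that of Txn1 106, and those of Anxa2 128 and 1.23. Of 219 list members in the top 10% of genes with 2 or more probe sets, 12 had the second-brightest one under background. The brightest probe set of Anxa2 carries a suffix (a) that the array's maker gives to sets shared by several transcripts of a gene. Without sets of suffix a, s or x Anxa2 fell to percentile 2.45. Actg1 has 1 probe set, of suffix s, and so no value without such sets.

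The start regions of 3 of these genes are shown as examples of abundant transcripts whose promoters hold a motif that is rare among all promoters. The sequences are the 150 bases before the transcription start (RefSeq, GRCm38.p6), read 5′ to 3′ on the gene's strand. For Vim (chr2:13574161-13574310, plus strand) and S100a4 (chr3:90603620-90603769, plus strand), capitals mark TATAAA. For Actg1 (chr11:120348496-120348645, minus strand), capitals mark a CArG box, the core motif known for serum response factor.
Vim: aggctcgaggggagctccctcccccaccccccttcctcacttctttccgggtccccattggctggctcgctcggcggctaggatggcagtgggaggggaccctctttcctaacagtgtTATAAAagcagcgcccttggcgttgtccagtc
S100a4: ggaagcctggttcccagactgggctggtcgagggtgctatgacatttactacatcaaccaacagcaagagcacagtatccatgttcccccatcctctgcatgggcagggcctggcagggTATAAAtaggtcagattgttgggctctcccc
Actg1: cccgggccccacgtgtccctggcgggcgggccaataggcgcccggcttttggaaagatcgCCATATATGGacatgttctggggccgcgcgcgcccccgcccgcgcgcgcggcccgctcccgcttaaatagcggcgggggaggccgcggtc
TATAAA starts 32 bases before the start of Vim and 31 before that of S100a4, and the CArG box 90 bases before that of Actg1. TATAAA between 40 and 16 bases before the start, on the gene's strand, occurred in 2.81% of 9887 promoters matched to genes of the array. A CArG box on either strand of the 250 bases before the start occurred in 1.38%.

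The share of CpG-rich promoters was lowest among genes under background. Such promoters are known to belong to housekeeping genes, with CpG-poor ones more frequent among tissue-specific genes. A promoter was counted as CpG-rich when its ratio of observed to expected CpG over 300 bases (250 before and 50 after the start) was at least 0.6. This held for 29.8% of 3480 genes under background, 74.6% of 3861 genes from the background level to the 75th percentile, and 84.5% of 1514 genes between the 75th and the 90th. The share was 84.4% of 927 genes between the 90th and 99th percentiles and 81.0% of 105 genes above the 99th, against 61.3% of all 9887. The TATAAA motif ran otherwise, at 5.80% under background, 0.462% between the 75th and 90th percentiles and 3.81% above the 99th (4 genes: Vim, S100a4, Anxa1 and Rpl22l1).

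**Figure D2:**
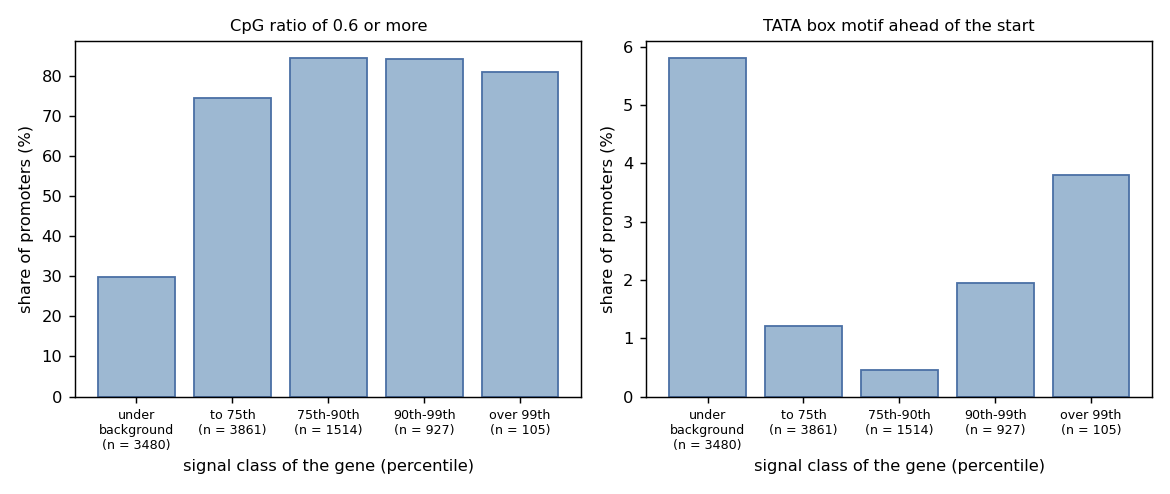
Share of promoters (vertical axes, %) that are CpG-rich (left) or hold TATAAA 40 to 16 bases before the start (right), by signal class of the gene. CpG-rich promoters rise from 29.8% under background to over 80% in the 3 highest classes, and TATAAA is most frequent under background (5.80%) and above the 99th percentile (3.81%).

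The cell type label was set beside 8 myoblast markers, chosen with earlier results of these data known, so it was not independently checked. Of these markers, 7 were above background (63.1% of all genes were), 5 of them clearly (37.2% of all genes were). Chrna1, the alpha subunit of the muscle acetylcholine receptor, stood at 1072 and Myf5 at 1058. Chrna1 is also named below with genes of differentiated muscle. Des, which encodes desmin, read 795, with its other probe set at 35.2. The laminin receptor subunit Itga7 read 548, Ncam1, a neural cell adhesion molecule also carried by myoblasts, 428, Cdh15 (M-cadherin) 140.4 and Msc (musculin) 109. Myod1, the founding member of the myogenic factors, was the exception with a signal of 35.1 by its single probe set, just under background.

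**Figure D3:**
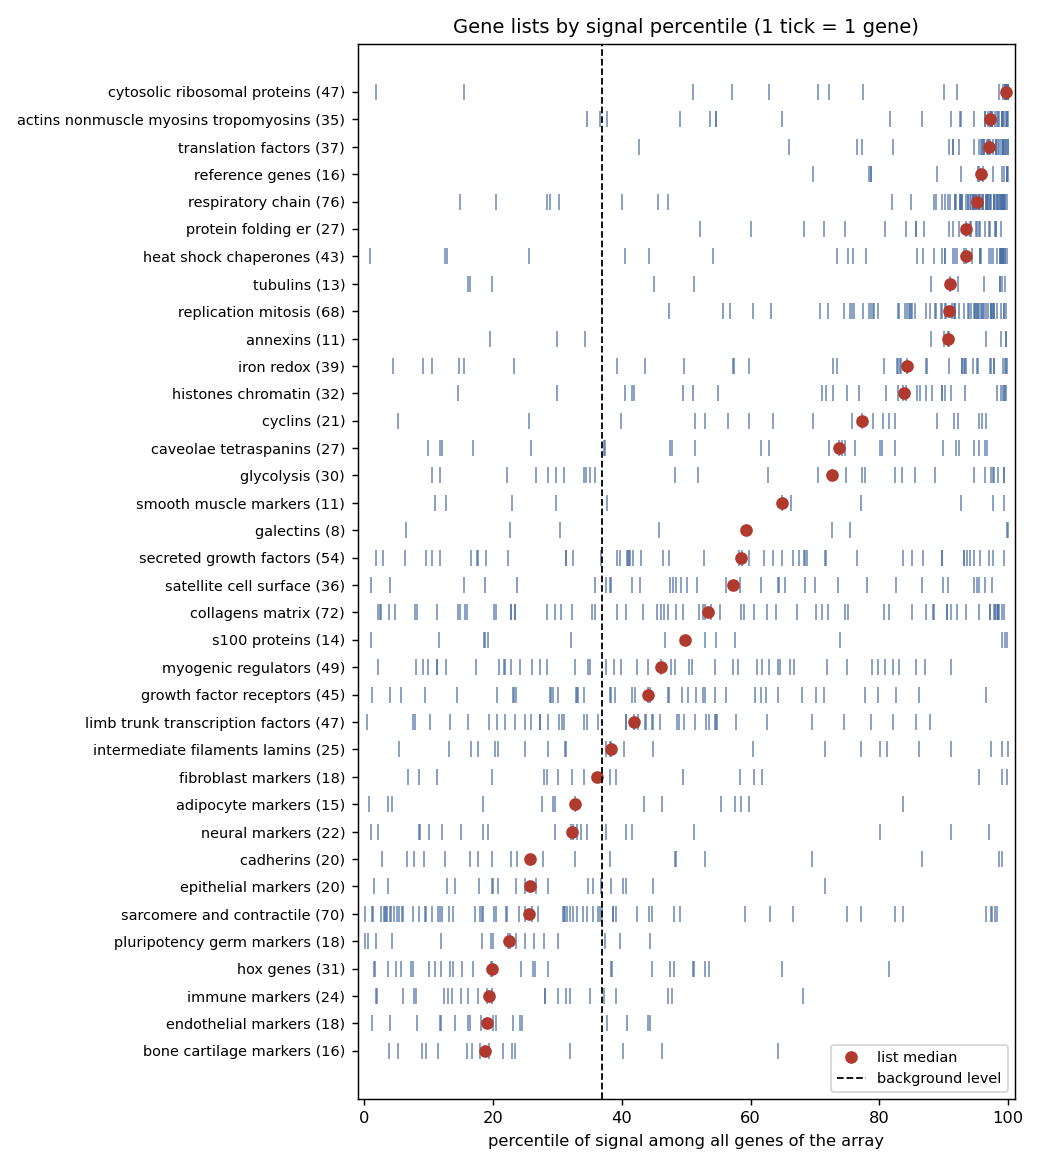
Signal percentile among all 12393 genes (horizontal axis) of every member (tick) and the median (circle) of 36 gene lists, with the number measured in brackets and the background level as a dashed line. Ribosomal protein, actin-based and translation lists have medians at or above percentile 97.0, and contractile, HOX, immune, endothelial and bone lists have medians under 26.

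Among myogenic regulators, Myf5 and 3 of 4 ID proteins were clearly above background and the differentiation factors Myog and Myf6 under it. The 4 myogenic bHLH factors had signals of 1058 for Myf5, 35.1 for Myod1, 4.61 for Myog (myogenin) and 3.91 for Myf6, each by 1 probe set. So Myf5, a factor of the undifferentiated myoblast, was clearly above background and the other members of the family were under it. The ID proteins Id3 at 2037, Id2 at 1466 and Id1 at 1316 were clearly above, and Id4 at 13.5 was under. Id3 was the 1 of 49 regulators in the top 10% of all genes.

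Partners and cofactors of the myogenic factors followed. E proteins, the bHLH partners that ID proteins capture, were all above background, with Tcf12 at 1118, Tcf3 at 373 and Tcf4 at 348. Of the MEF2 factors, which act with the myogenic factors on muscle genes, Mef2a stood at 880.0 and Mef2d at 336, while Mef2c at 29.96 and Mef2b at 5.52 were under background. Pax3 and Pax7, which mark muscle progenitors and satellite cells, were both under it, at 14.2 and 19.3. Six4, a homeobox factor upstream of myogenic genes, read 600.3 and its cofactor Eya3 448, but their other probe sets read 26.02 and 57.9. Among the SNAI, ZEB and TWIST factors, which drive mesenchymal programmes, Twist2 at 982, Zeb1 at 923 and Snai2 at 265 were above background. The other probe set of Zeb1 read 5.74, and Twist1 stood at 9.65, both under it. In all, 30 of the 49 measured regulators were above background (61.2%, near the 63.1% of all genes) and 15 clearly so (37.2% of all genes were).

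Genes of differentiated muscle were mostly under background. Of 70 measured contractile, synaptic and metabolic muscle genes 20 were above background (28.6%, against 63.1% of all genes) and 50 under it, with a median percentile of 25.5. All 7 sarcomeric myosin heavy chains measured had signals of at most 48.3, the highest being Myh7 at 48.3, and the adult chains Myh1, Myh2 and Myh4 stood at 10.7, 16.7 and 17.9. Ckm, the muscle creatine kinase, read 12.6, Mb, myoglobin, 1.91, Ttn, the giant spring protein titin, 29.4, and Ryr1, the calcium release channel, 2.07. Skeletal actin Acta1 at 146 was above background but not clearly so, and cardiac actin Actc1 at 34.1 was under it. The count of 20 became 33 with the background level at the 75th percentile of the genes of other tissues, since 13 members lay between both marks.

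A few genes usually counted with differentiated muscle had clear signals in these cells. The tropomyosins Tpm3 at 6380.1, Tpm2 at 5879.9 and Tpm1 at 5137 were in the top 10%, and their genes also make non-muscle forms that these values do not separate. Eno3, the muscle enolase, read 4978, and Atp2a2, a calcium pump of the endoplasmic reticulum in many cells, 4217. Of 7 troponin genes, Tnnt2, the troponin T of heart and embryonic muscle, stood at 1176 with its second probe set at 1142. Both sets carry a suffix (a, s or x). Tnnc1 was at 89.8, and the other 5 troponin genes were under background. Of the muscle acetylcholine receptor subunits, Chrna1 at 1072 and Chrnb1 at 457 were clearly above background, as was Rapsn at 711, the scaffold that clusters the receptor. The delta, gamma and epsilon subunits read 3.7 for Chrnd, 30.7 for Chrng and 1.42 for Chrne, and the receptor-clustering kinase Musk 4.63. So the receptor genes were split, with 2 of 5 above background (63.1% of all genes were).

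**Figure D4:**
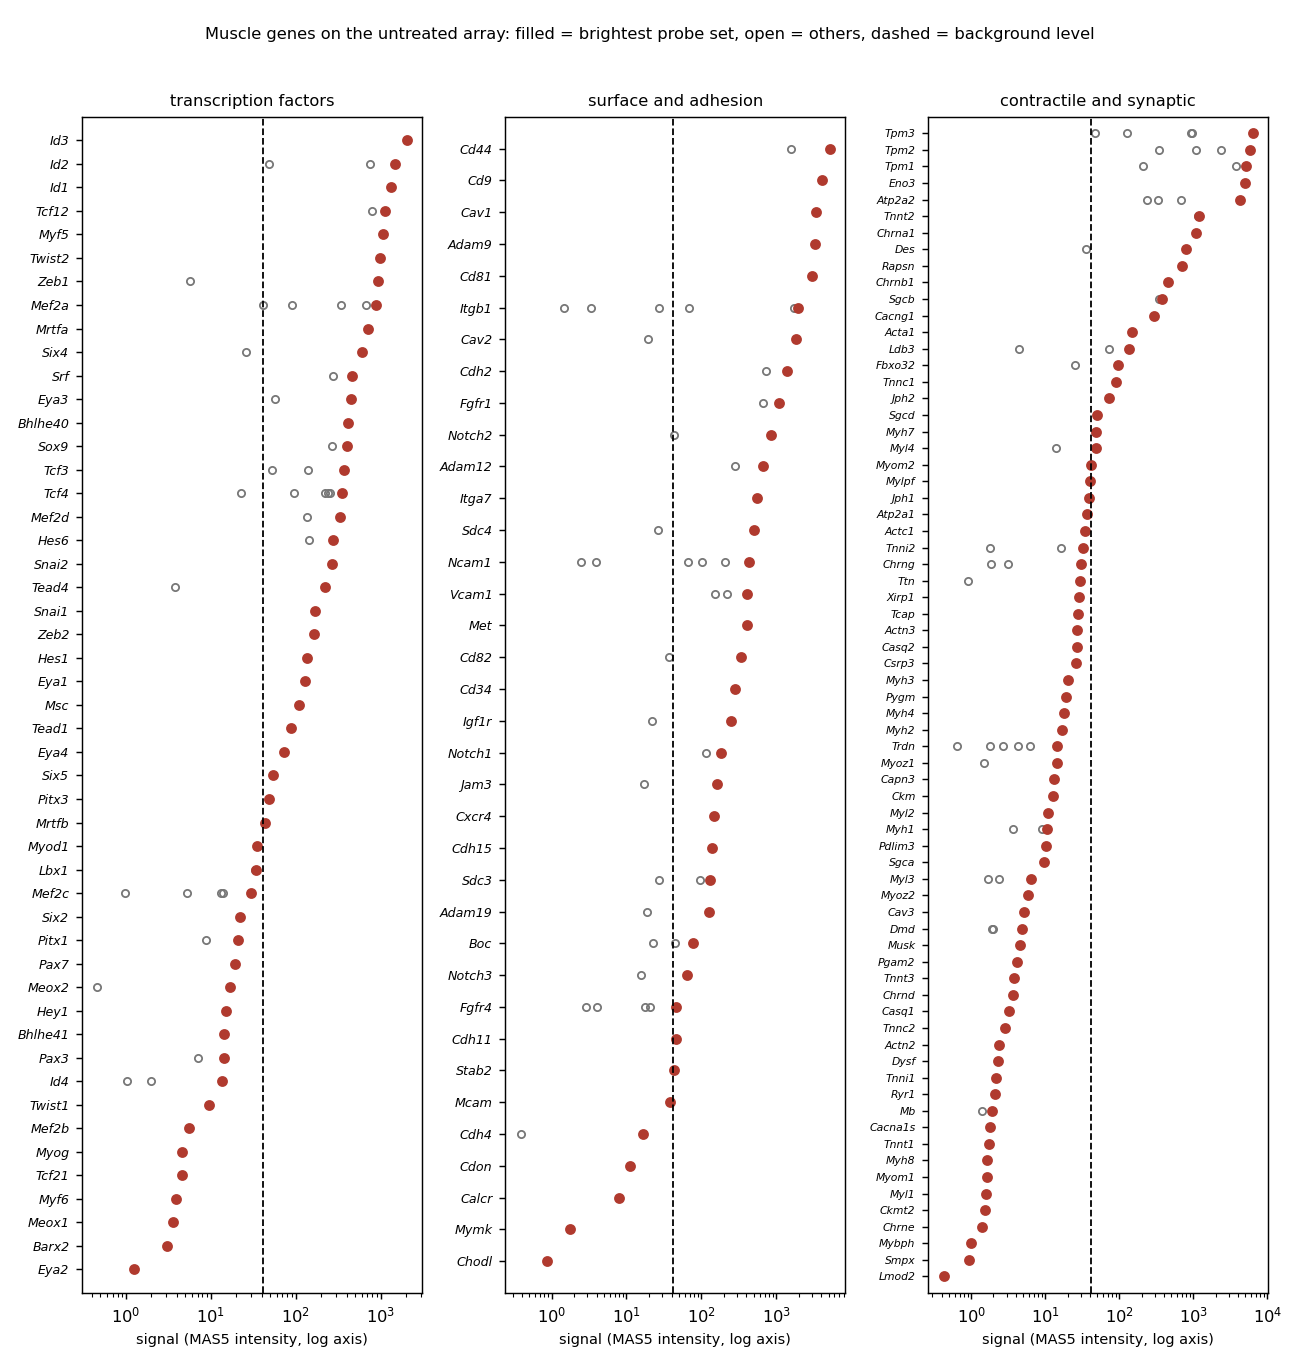
Signals (horizontal axes, MAS5 intensity, log scale) of 49 myogenic regulators, 36 surface and adhesion genes and 70 contractile and synaptic genes on the untreated array, with the brightest probe set filled, other probe sets open and the background level dashed. Id3, Myf5, Cd44 and tropomyosins lie to the right, and myogenin, Pax7 and sarcomeric myosins to the left of the line.

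The start regions of 2 muscle genes just under background are shown because many contractile genes hold a motif, whether above background or not. With the level at 22.8 (75th percentile of the genes of other tissues) both would be above it. CAGCTG is an E-box, the kind of site that myogenic bHLH factors are known to bind. It occurred in the 250 bases before the start in 26 of 56 contractile genes with a promoter (46.4%), against 11.7% of all 9887. The share was 47.5% of the 40 contractile genes under background and 43.8% of the 16 above it. For Mylpf, a fast myosin light chain (chr7:127211458-127211607, plus strand, signal 40.2), and Atp2a1, the calcium pump of fast fibres (chr7:126463074-126463223, minus strand, signal 36.8), the 150 bases before the start carry CAGCTG in capitals.
Mylpf: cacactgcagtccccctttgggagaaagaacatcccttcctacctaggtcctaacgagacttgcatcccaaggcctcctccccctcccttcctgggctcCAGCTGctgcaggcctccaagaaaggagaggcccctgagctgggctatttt
Atp2a1: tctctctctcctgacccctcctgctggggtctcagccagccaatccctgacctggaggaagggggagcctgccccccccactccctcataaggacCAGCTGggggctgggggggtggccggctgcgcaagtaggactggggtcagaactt
The motif starts 51 bases before the start in Mylpf and 55 in Atp2a1, and is the same on both strands. A match of letters is a description and shows no binding.

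Surface proteins of muscle precursors were largely above background. Of 36 measured genes 30 were above background (83.3%, against 63.1% of all genes) and 16 clearly so (37.2% of all genes were). The hyaluronan receptor Cd44 read 5211, the tetraspanins Cd9 and Cd81, which act in myoblast fusion, 4065 and 3029, and the caveolar coat gene Cav1 3422. Adam9, a membrane metalloprotease, read 3289.9, and Adam12, its relative of fusing myoblasts, 659.8. The satellite cell genes Vcam1 at 405, Sdc4 at 503 and Met at 402, the receptor for hepatocyte growth factor, were clearly above background, with the second Sdc4 probe set at 26.4. Calcr, the calcitonin receptor of quiescent satellite cells, was at 8.05 and Mymk, the fusion protein myomaker, at 1.77, both under it. Among Notch receptors, which keep precursors undifferentiated, Notch2 read 842, Notch1 181 and Notch3 65.3.

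N-cadherin was the cadherin with the clearest signal. Of 15 cadherin genes measured, 4 were above background (26.7%, against 63.1% of all genes). They were Cdh2 (N-cadherin) at 1409.9, Cdh15 at 140.4, Cdh13 at 138 and Cdh11 at 45.8. The epithelial Cdh1 read 12.3 and the endothelial Cdh5 8.76. The catenins that tie cadherins to actin, Ctnnb1 at 8628 and Ctnna1 at 7014, were in the top 10%. Cav1 at 3422 and Cav2 at 1841 were clearly above background, as were the cavins Cavin1 at 1072, Cavin3 at 686 and Cavin2 at 661. Further probe sets read 19.5 for Cav2, and 52.3 and 5.03 for Cavin1. Cav3, the caveolin of muscle fibres, stood at 5.13.

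Calcium-binding and lectin families had a few very high members and several under background. Annexins Anxa2, Anxa1 at 14841, Anxa3 at 8063, Anxa5 at 4162, Anxa4 at 1978 and Anxa7 at 1934 were in the top 10%, Anxa8 at 1854 and Anxa6 at 1569 clearly above background, and Anxa9, Anxa13 and Anxa10 under it at 33.3, 24.5 and 12.04. S100a4, S100a6 at 11402 and S100a10 at 8433, the partner of annexin A2, were in the top 10%, and S100a8 and S100a9, the pair of granulocytes, read 11.04 and 4.75. Behind the galectins Lgals1 and Lgals3 came Lgals9 at 727 and Lgals8 at 629, and the gut galectin Lgals4 was at 15.2. Of 11 annexins 8, of 13 S100 proteins 7 and of 8 galectins 5 were above background, against 63.1% of all genes.

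Actin-based genes had some of the highest signals of the array. Of 35 actin-based genes 33 were above background (63.1% of all genes were) and 25 in the top 10% (10% of all genes were). Their median percentile was 97.1. Acta2, the smooth muscle actin, read 9941 by a probe set of shared suffix and 16.3 by the other, so its rank rests on 1 probe set. Cfl1 (cofilin, which severs filaments) stood at 14087, Myh9, a non-muscle myosin heavy chain, at 8855, Tmsb4x at 8578 and the calponin Cnn3 at 6782. Cnn1, the calponin of differentiated smooth muscle, read 43.6, near the level. Among 13 tubulin genes, Tubb5 at 12000.1, Tuba1a at 8543, Tuba4a at 7802, Tubb4b at 7629 and Tubb6 at 3979.6 had top 10% signals, and Tubb4a at 12.3, Tubg2 at 8.82 and Tuba8 at 8.55 were under background. Lmna, the nuclear lamin A/C, read 8593, Lmnb1 1000.4 and Lmnb2 322, and Nes, nestin of precursor cells, 1366.

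Growth factor receptors reached high signals in few members. Axl, a receptor tyrosine kinase for the ligand Gas6, was the 1 of 45 receptors in the top 10%, at 4229, with its other probe set at 14.4. Next stood the collagen receptor Ddr1 at 1359.5, by a probe set of suffix x, with its other sets between 4.82 and 284. Fgfr1 at 1085, Pdgfrb at 921 and the Wnt co-receptor Ryk at 824 followed. Other members of these families were lower on the array. Fgfr2 was at 33, Fgfr3 at 24.8 and Fgfr4 at 46.5, and Pdgfra, known from fibro-adipogenic cells of muscle, at 45.8. The insulin and IGF receptors read 246 for Igf1r, 329 for Igf2r and 30.4 for Insr. Endothelial receptors Kdr, Flt4, Tek and Tie1 were under background and Flt1 was at 91.8. In all 28 of 45 receptors were above background (62.2%, near the 63.1% of all genes), 9 of them clearly (37.2% of all genes were).

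Secreted factors reached the top 10% in 9 of 54 genes. Mif, a cytokine made by most cells, stood at 9914, Fstl1, a follistatin-like glycoprotein, at 5269.5, Grn (progranulin) at 4532 and Csf1, the macrophage growth factor, at 3016. The CCN proteins Ccn2 at 3561, Ccn1 at 2589 and Ccn4 at 1419, and the BMP antagonist Grem1 at 2502, were clearly above background. The chemokine Ccl2 read 2499.5 and Ccl7 461, and the neurotrophic factors Bdnf and Gdnf 769 and 416. The growth factors Igf1 at 11.2 and Fgf2 at 14.8 were under background and Igf2 at 52.9 was close to it. The binding proteins Igfbp7 at 1832, Igfbp2 at 1824 and Igfbp6 at 1273 were clearly above. The other Igfbp7 probe sets read 32.7 and 6.67, both under background. Fst, follistatin, which blocks myostatin, read 4.85. In all, 39 of the 54 factors were above background (72.2%, against 63.1% of all genes).

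Matrix genes were above background about as often as all genes. Of 72 genes 48 were above background (66.7%, against 63.1% of all genes) and 17 in the top 10%. Fn1, fibronectin, read 10252, Timp2 and Timp1, inhibitors of metalloproteinases, 7059 and 6768, Bgn, the proteoglycan biglycan, 6809, Sparc 6756, and Lox, which crosslinks collagen, 6052. Among fibrillar collagens, Col3a1 stood at 8486, Col5a2 at 5522, Col1a2 at 3375 and Col5a1 at 1924, and Col1a1 at 325. The second probe sets read 546 for Col3a1, 1284 for Col1a2 and 96.8 for Col1a1. The basement membrane chains Col4a1 at 4738, Col4a2 at 2015, Lamb1 at 1920.2 and Nid1 at 5679.9 were in the top 10%, and the kidney chains Col4a3 and Col4a4 were at 1.96 and 1.42. Cartilage collagens Col2a1, Col9a1 and Col10a1 read 8.38, 23.9 and 1.74.

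Genes of protein synthesis and folding had high signals in nearly all members. Of 47 measured ribosomal protein genes 38 were in the top 10% and 36 in the top percentile band above 99, with a median percentile of 99.7. The exceptions were genes such as Rps27 at 373, Rpl27a at 262 and Rpl39 at 172, and the tissue-restricted copies Rpl3l, of muscle and heart, and Rpl39l, of testis, at 8.003 and 1.14. Many ribosomal genes have near-identical processed copies, 38 of the 85 listed genes were not measured by a probe set with 1 symbol, and without suffixed probe sets the list's median was 71.3 over 22 genes. All 37 translation factors were above background (63.1% of all genes were). Pabpc1, the poly(A)-binding protein, stood at 14678 (other probe set 59.6), Eif5a at 13196, Eif4a1 at 10332 and Eef2 at 9876. Eef1a2, the elongation factor of mature muscle and neurons, was at 75.3. Of 9 genes of the CCT chaperonin, which folds actin and tubulin, 8 were in the top 10%, between 4888 for Cct8, whose second probe set read 4.58, and 11256 for Cct2, and the testis form Cct6b read 18.9.

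Chaperones of stress and of collagen were also high in many members. Of 43 measured chaperones, the CCT genes included, 39 were above background (63.1% of all genes were) and 28 in the top 10% (10% of all genes were). Hspb2 at 215, Hspa2 at 89.9 and Hspa1a at 57.5 were above background but not clearly, and Hspa1b read 1827. Hspd1, the mitochondrial chaperonin, read 12217, Hsp90aa1 9557, Hspa5 of the endoplasmic reticulum 8929, and the small heat shock proteins Hspb1 and Cryab 7945 and 3622. Serpinh1, the collagen chaperone, stood at 2570.5. Muscle-restricted small heat shock proteins Hspb3 and Hspb7 were at 5.69 and 5.39. All 27 genes of secretory folding and translocation were above background (63.1% of all genes were). They were led by P4hb, a disulfide isomerase, at 8089.8, Calr (calreticulin) at 6035 and Spcs1 at 5949.8.

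Genes of the respiratory chain were nearly all above background, and glycolytic genes about as often as all genes. Of 76 respiratory chain genes 71 were above background (93.4%, against 63.1% of all genes) and 63 in the top 10%. Uqcrb, Atp5g3 at 12338, Cox6b1 at 10721 and Atp5b at 9879 were among the highest. Of 7 tissue-restricted isoforms 2 were above background. The heart and muscle forms Cox6a2, Cox7a1 and Cox8b stood at 54.3, 24.9 and 7.37, where Cox6a1 and Cox7a2 stood at 8284 and 10042. In glycolysis, 19 of 30 genes (63.3%) were above background. Pkm read 10068, Pgk1 10056, Ldha 6740.3, Tpi1 5521 and Aldoa 4062. The hexokinases Hk1 and Hk2 read 1311 and 1071, Slc2a1, the basal glucose transporter, 1158, and Slc2a4, the insulin-responsive transporter of muscle, 33.1. Of the pyruvate dehydrogenase kinases, Pdk4 at 830 and Pdk3 at 562 were clearly above background, as was the lactate transporter Slc16a1 at 1651. Pdk1 and Pdk2, at 37.7 and 26.3, the glucose transporter Slc2a3 at 24.1 and the lactate transporter Slc16a3 at 4.91 were under background. So were the testis forms Gapdhs, Pgk2 and Ldhc and the muscle form Pgam2, and Eno3 was the 1 tissue-restricted glycolytic isoform of 9 in the top 10%.

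Among redox genes, 33 of 39 were above background (84.6%, against 63.1% of all genes). Besides Fth1 and Txn1, Gsta4, which detoxifies lipid aldehydes, stood at 10740.0, Gstp1 at 9699.9, Txnrd1 at 5583, Gpx4 at 5410.5 and the metallothionein Mt1 at 4992, with its other probe set under background at 27.6. Gpx2, Gpx3, Gpx7 and Mt3, members of the same families, were under it at 7.16, 4.13, 1.87 and 3.52.

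Cell division genes were above background without exception. All 68 measured genes of DNA replication and mitosis passed the level (63.1% of all genes did), 64 of them clearly (37.2% of all genes were). Of the 68, 36 were in the top 10% (10% of all genes were), and their median percentile was 90.8. Pcna, the sliding clamp of DNA polymerase, stood at 13774, Rrm2, the regulated subunit of ribonucleotide reductase, at 10048, Pttg1 (securin) at 9844 and Cdc20, an activator of the anaphase-promoting complex, at 6561. The replicative helicase genes Mcm2 to Mcm7 lay between 2175 for Mcm2 and 4989 for Mcm7. Mki67, the common proliferation marker, read 3481, Cdk1 5288 and Top2a 5337, with the other probe set of Top2a at 1.56. The lowest were Tyms (thymidylate synthase) at 124, Ung at 239 and Cenpe at 258. Among cyclins, Ccnd1 stood at 4154, Ccna2 at 3730.2, Ccnb2 at 2131, Ccnd3 at 1018, Ccne2 at 965 and Ccnd2 at 807, and the germ cell cyclins Ccna1 and Ccnb3 were at 18.7 and 2.14. The other genes named in the series' title were Dgkz, with 1500.1 and 188 by its probe sets, and Btg2, with 94.7 and 72.1, above background but not clearly.

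Start regions of 2 division genes are shown because most genes of this list hold the CCAAT motif. CCAAT on either strand of the 250 bases before the start occurred in 40 of 57 replication and mitosis genes with a promoter (70.2%), against 35.8% of all 9887 and 37.4% of the 1001 other genes in the top 10%. In the 150 bases before the start of Pcna (chr2:132253181-132253330, minus strand) and Rrm2 (chr12:24708104-24708253, plus strand), capitals mark CCAAT or its reverse complement ATTGG.
Pcna: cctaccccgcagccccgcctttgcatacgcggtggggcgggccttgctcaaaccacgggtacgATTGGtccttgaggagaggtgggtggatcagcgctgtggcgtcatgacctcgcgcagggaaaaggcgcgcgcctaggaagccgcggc
Rrm2: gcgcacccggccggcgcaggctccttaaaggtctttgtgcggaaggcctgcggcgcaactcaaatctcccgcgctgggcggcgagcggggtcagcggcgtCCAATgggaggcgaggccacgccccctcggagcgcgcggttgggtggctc
The marked letters start 87 bases before the start of Pcna and 50 before that of Rrm2.

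Chromatin genes of dividing cells were high as well. Npm1 (nucleophosmin) stood at 13681, Ncl (nucleolin) at 11979, Hmgn1 at 10380.2 and the histone variant gene H2az1 at 8058. Hmga2, a chromatin protein best known from embryonic and transformed cells, read 6355, with other probe sets at 3551 and 1997. The maintenance methyltransferase Dnmt1 was clearly above background at 1597, and the de novo enzymes Dnmt3a and Dnmt3b were near it at 57.6 and 67.96.

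HOX genes, which record position along the body axis, were above background in most measured members of the A and C clusters, in 1 member of B and in 0 of D. Of 31 measured HOX genes 11 were above background (35.5%, against 63.1% of all genes): 5 of 9 in cluster A (55.6%), 1 of 9 in B, 5 of 6 in C and 0 of 7 in D. The highest were Hoxa9 at 1019, Hoxa11 at 418, Hoxa10 at 207 and Hoxc8 at 197, followed by Hoxa7 and Hoxc9, at 173 and 173. Hoxa2, Hoxa3 and Hoxa4, at 5.99, 17.04 and 19.97, and Hoxa13 at 12.3 were under background, so that in cluster A the measured members from Hoxa5 to Hoxa11 stood above and those on either side under it. The highest HOXD signal was 9.25, of Hoxd8, and Hoxb9 at 45.98 and Hoxc13 at 47.5 passed the level narrowly. Above the highest gene of other tissues only Hoxa9 and Hoxa11 remained.

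**Figure D5:**
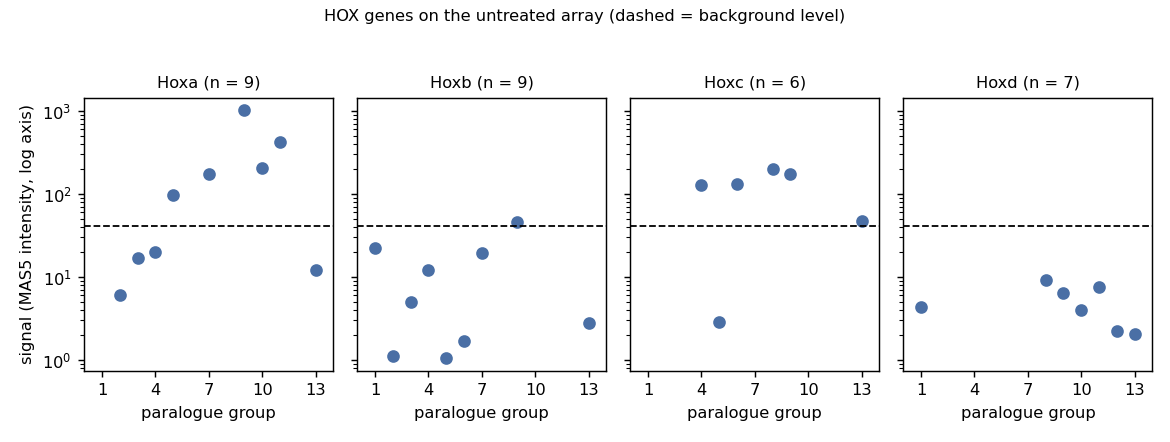
Signals (vertical axis, MAS5 intensity, log scale) of 31 HOX genes by paralogue group (horizontal axis) in the 4 clusters, with the background level dashed. Hoxa5 to Hoxa11 and 5 of 6 Hoxc genes lie above the line, and all 7 Hoxd genes under it.

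Factors of limb mesenchyme led the other developmental transcription factors. Prrx1 at 1552 and Prrx2 at 1059, homeobox factors of limb mesenchyme, and Foxc2 at 1324, a factor of somite-derived tissue, led the 47 genes of that list, of which 26 were above background (55.3%, against 63.1% of all genes) and 0 in the top 10%. With the level at the median of named probe sets, and likewise without suffixed probe sets (38 genes), 17 were above it. Meis2 stood at 694 and Pbx3 at 366, known cofactors of HOX proteins. The limb-type factors Tbx5 and Tbx4, of fore- and hindlimb, and Pitx1, of hindlimb, read 14.3, 19.1 and 20.8, and the heart factors Nkx2-5, Hand1 and Hand2 33.1, 26.4 and 8.58, all under background.

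Markers of most other cell types were under background at the level of 41.5, with a few clear exceptions. The counts above background were 4 of 18 endothelial, 5 of 24 immune, 5 of 20 epithelial and 3 of 16 bone and cartilage markers. Of pluripotency and germ cell markers 3 of 18 were above it, of neural markers 7 of 22 and of adipocyte markers 7 of 15. The share of all genes at that level was 63.1%. By the median over a gene's probe sets, the immune and the epithelial count were each 3. With the level at the 75th percentile of the genes of other tissues (22.8, reached by 71.2% of all genes), 9 immune, 8 epithelial, 13 neural and 10 adipocyte markers reached it, so that most neural and adipocyte markers were then above the level. Defining markers Pecam1 at 4.98, Ptprc at 11.4, Epcam at 10.1, Adipoq at 0.757, Col2a1 at 8.38 and Pou5f1 at 1.15 were all under it. Exceptions were Krt14, a basal keratin, with 589 and other probe sets at 489.9 and 0.99, and Cd14, a monocyte receptor, at 495. Others were Cebpb at 1172, Pparg, the adipocyte regulator, at 309, and Sox9, the cartilage regulator, at 402. Above background but not clearly were also the adipocyte markers Pnpla2 at 287, Lpl at 269 and Plin4 at 234. The immune markers Cd53 at 131 and Csf1r at 121 were likewise above it. Of 17 fibroblast markers 8 were above background (63.1% of all genes were), among them S100a4, Col3a1 and Col1a2. Pdgfra was near the level, and Dcn, Lum, Thy1 and Fap were under it, at 28.97, 22.04, 24.7 and 12.3.

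Stmn2 and neurofilament genes stood out among neural markers. Stmn2, a microtubule-destabilising stathmin of neurons, read 4617 and 1310.5 by its probe sets, Nefl, the light neurofilament chain, 2027 and Nefm, the medium chain, 941. Nefh, the heavy chain, was at 9.97. The synaptic and neuronal markers Snap25 at 3.99, Syt1 at 29.4, Rbfox3 at 3.3 and Elavl3 at 5.09 were under background. The glial markers Gfap, Mbp and Olig2, at 43.4, 32.1 and 0.868, were under it or at its edge. Tubb3 at 175 and Gap43 at 58.0, of neurons, and the glial Sox10 at 66.1 were above background but not clearly. Of 11 smooth muscle markers 7 were above background (63.6%, near the 63.1% of all genes), led by Acta2, whose other probe set read 16.3, Cald1 at 5312 and Tagln at 2349, and Myh11, the smooth muscle myosin, read 15.6 and its regulator Myocd 4.35. Without suffixed probe sets 4 of 9 smooth muscle markers were above background, and the list's median percentile was 32.6 in place of 64.8.

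Some whole gene families, taken by their symbols, lay on 1 side of the background level. None of 31 olfactory receptors (highest 31.1, Olfr544), 30 vomeronasal receptors, 13 GABA-A receptor subunits, 11 sulfotransferases or 16 prolactin family genes reached the level. Of 62 potassium channel genes 7 did, and Kcnn4, a calcium-activated channel, stood apart from them at 2821. By contrast all 74 mitochondrial ribosomal proteins, 24 RNA polymerase subunits, 18 hnRNP proteins and 8 coatomer subunits were above background, as were 36 of 39 proteasome subunits. Other families were mixed. Above background were 125 of 173 zinc finger genes named Zfp (72.3%) and 44 of 56 RAB GTPases (78.6%), against 63.1% of all genes. The counts were 9 of 29 for receptors named Gpr, 9 of 40 for keratins and 4 of 30 for protocadherins.

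Genes often used as references in expression work covered a wide range of signals. All 16 measured were clearly above background (37.2% of all genes were). They ranged from Tbp, the TATA-binding protein, at 539, Rer1 at 854 and Gusb at 867 to Eef1a1. Between them, Hprt stood at 3448, Sdha at 2369.8, Ywhaz at 3845, B2m at 5402 and Pgk1 at 10056. Their second probe sets reached from 2.44 for Tbp, under background, to 10603 for Rpl13a. The array's own control probe sets gave a ratio of the 3′ to the 5′ set of 1.27 for actin, 0.841 for Gapdh and 3.92 for the transferrin receptor.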

How the data were processed

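RNA of C2C12 cells carried a biotin label, per the labels' protocols. Deposited were MAS5 intensities of probe sets, per the submitters' processing notes. Of MAS5's version, scaling target and detection calls nothing is given in the sources used here. The mean between the 2nd and 98th percentile of the array was 499.95, so the intensities had been scaled by the authors, and no scaling was added. The number of arrays (1) limits the precision.

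Of 22690 probe sets, 64 were controls, 20380 had 1 gene symbol in the platform annotation, 691 several and 1555 none. Of the named ones, 20351 were found by gene ID in RefSeq (GRCm38.p6) and 0 symbols changed. A gene is its brightest named probe set. The background level is the 90th percentile of 92 genes of other tissues. The members and lists (36, of 1226 genes, 1081 measured) were chosen with earlier results of these data known. The rule for named genes took the 40 brightest, each list's 5 highest members, members of small families, the highest members under the level and those whose probe sets differ most. Other genes, subgroups, families by symbol and promoter motifs were chosen after their values were seen. Promoters come from RefSeq (GRCm38.p6), 9887 genes matched by symbol, first listed start (1949 have several). No test was run, since there is 1 sample. Counting was tested on simulated data. Alternatives were the median over probe sets, the second-brightest probe set, leaving out probe sets with suffix x, s or a, and 4 other levels. Python 3.11.15, numpy 2.4.6, pandas 2.3.3 and matplotlib 3.10.9 were used.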

Additional observations from a re-analysis of the deposited data

Results flagged for a closer look

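Signals above the background level appeared in probe sets that the gene levels do not use. Of 691 probe sets with several gene symbols 453 reached the level, with a highest signal of 23844. Of 1555 probe sets with no symbol 637 reached it (41.0%), with a median of 23.5 and a highest signal of 20156. No gene is named for either set, and which transcripts they read was not tested.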

How the results depend on the processing

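With the median over a gene's probe sets 7715 genes were above background, without suffixed probe sets 6303 of 10529, and with levels at the 75th and 95th percentiles of the background list or at the median of named probe sets 8823, 7369 and 6549, all within 1.5 times of 7815. By second-brightest probe sets, which only 4956 genes have, 3505 passed, as did 386 of 523 list members, 12 of 19 myogenic regulators, 9 of 19 contractile genes, 13 of 20 surface genes, 35 of 38 division genes and 2 of 5 HOX genes. That setting has fewer genes and also a lower level (24.5, by the same rule), and the part of each in the counts was not tested. With the level at the highest gene of other tissues, chosen after seeing the data, 4616 genes, 15 regulators, 11 contractile, 16 surface and 2 HOX genes passed, and 33 contractile genes passed with the 75th percentile. Of 108 list medians 10 moved by more than the SD between probe sets, all by second-brightest or without suffixed probe sets. That SD is of single genes, so it is a wide mark for a list median. The reference gene median, for example, went from 95.8 (16 genes) to 82.3 (12 genes) by second-brightest probe sets without being counted. Of 52 percentiles of single genes 4 moved by more than that SD. Anxa2 fell to 51.2 with the median and 2.45 without suffixed sets, Acta2 to 26.0 and Col3a1 to 74.6 without them. Of 217 further list counts 68 moved by over 1.5 times, 26 of them by second-brightest probe sets. This rule compares counts and not shares, and that setting and the one without suffixed sets measure fewer genes. By second-brightest probe sets, respiratory chain genes went from 71 of 76 to 42 of 42. Caveolar and tetraspanin genes went from 22 of 27 to 8 of 14, and both lists were counted as moved. Signals near 41.5 cannot be told from background, and no spread between cultures is known. No paired analysis was possible because there is 1 sample per group.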

Other observations

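Xist, the RNA that coats the inactive X chromosome, stood at 2091, with other probe sets at 593 and 89.96. The Y-linked genes Kdm5d, Uty, Sry and Eif2s3y were under background, at 21.4, 8.43, 8.4 and 5.28. The X-linked genes Ddx3x and Eif2s3x read 6224 and 4852, and Kdm5c 39.8, just under background.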
